A study of Mus musculus with 16 samples.

Results

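Immediate early genes of the Fos, Jun and Egr families were examined in the colon of mouse pups born by C-section (CSD) or by vaginal delivery (VD). The members were the 10 genes Fos, Fosb, Fosl2, Jun, Junb, Egr1, Egr2, Egr3, Atf3 and Ier2, chosen by name among the 36711 genes tested, and they were read by 18 probes of the array. The 16 animals were RjOrl:SWISS pups at weaning, and each had its own 1-colour Agilent array of colon RNA. The 8 CSD pups (4 females and 4 males) were taken by hysterectomy and raised by foster mothers, and the 8 VD pups (2 females and 6 males) were born vaginally and raised by a dam other than their own, since litters were exchanged. The CSD pups came from biological mothers 3 and 4 (4 pups each) and the VD pups from mothers 5 (5 pups) and 6 (3 pups, all males), so delivery mode varied only between litters and rests on 2 litters each. Each of the 2 slides held 4 CSD and 4 VD pups. Between 61.6% and 64.5% of the spots lay well above background in CSD pups and between 58.7% and 64.9% in VD pups, with the lowest share in VD pup 11. The 13 epithelial markers looked up, such as Krt8, Cdh1 and Car1, were all well above background on every array, as were the 9 smooth muscle markers, so the samples held mucosa together with muscle.

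Immediate early genes are switched on within minutes of a growth factor, stress or inflammatory signal, without new protein synthesis, and their transcripts decay quickly. Kinase cascades act on serum response factor and its partners at CArG boxes and on CREB at cAMP response elements (CRE) in their promoters. The Fos and Jun proteins pair to form AP-1, which binds AP-1 sites, and the Egr proteins are zinc finger factors that bind GC-rich EGR sites. In the intestine AP-1 is known for its part in epithelial proliferation, wound repair and inflammation.

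The promoters of these genes are shown because promoters of this family are known to carry sites that switch them on and sites that the members themselves can bind. Promoter windows from RefSeq (GRCm38.p6), 250 bases before to 50 bases after a start, were found for 7 of the 10 genes (Fos, Fosb, Fosl2, Jun, Junb, Egr2 and Atf3). They were searched on both strands for the CArG box, the CRE (TGACGTCA), the AP-1 site (TGACTCA) and the EGR site (GCGNGGGCG). Of 32851 windows in the table, 1.63% held a CArG box, 1.79% a CRE, 5.20% an AP-1 site and 5.55% an EGR site. Exact matches were found in 3 of the 7 genes, an EGR site in Fosb and in Fosl2 and CArG boxes in Egr2, and in no window did 2 of these motifs overlap. Jun, Junb, Atf3 and Fos held none of these exact letters in the window. Sites farther from the start, or with other letters, were not searched for, so these promoters may still hold such sites. The first 3 sequences below are the 100 bases before the start and the last 2 are the CArG boxes of Egr2 with 10 bases on each side, 5′ to 3′ in the direction of the gene, with the matched letters in capitals.
Fos (chr12:85473790-85473889, plus strand): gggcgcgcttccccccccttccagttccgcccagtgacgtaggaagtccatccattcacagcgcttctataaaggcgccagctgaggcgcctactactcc
Fosb (chr7:19310046-19310145, minus strand): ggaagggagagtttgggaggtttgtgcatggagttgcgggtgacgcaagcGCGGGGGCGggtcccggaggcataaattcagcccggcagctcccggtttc
Fosl2 (chr5:32136372-32136471, plus strand): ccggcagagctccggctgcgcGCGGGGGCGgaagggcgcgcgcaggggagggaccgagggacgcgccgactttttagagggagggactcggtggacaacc
Egr2, first box (chr10:67537484-67537513, plus strand): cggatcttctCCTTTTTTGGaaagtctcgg
Egr2, second box (chr10:67537787-67537816, plus strand): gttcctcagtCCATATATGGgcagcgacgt

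The values of 9 of the 10 genes were lower in CSD than in VD pups, with Fosl2 the exception and with Jun turning to the other side in 5 of 39 alternative settings, but no gene of the 10 passed the test. A gene was called when its Benjamini-Hochberg adjusted p in limma, over all genes, was under 0.05. The correlation between litter mates was estimated at 0.0152 over all genes, so these p-values treat the pups of a litter as nearly independent. At the adjusted threshold 0 of the 10 genes were called, where 1.25% of all genes were (460 of 36711). At an unadjusted p under 0.05, 6 of the 10 genes passed, all of them lower in CSD, where 14.5% of all genes passed and 7.09% were also lower. Of all genes, 48.3% were lower in CSD. The median log2 fold change (CSD minus VD) of the 10 genes was -0.27, and that of all genes was 0.0029. The 3 members with the largest differences were Egr1, Atf3 and Fos, at log2 fold changes of -0.98, -0.88 and -0.84. All values below are normalized log2 intensities, on which 1 unit is a factor of 2 in brightness, and a level of one gene cannot be set against that of another because each probe binds with its own strength.

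**Figure D1:**
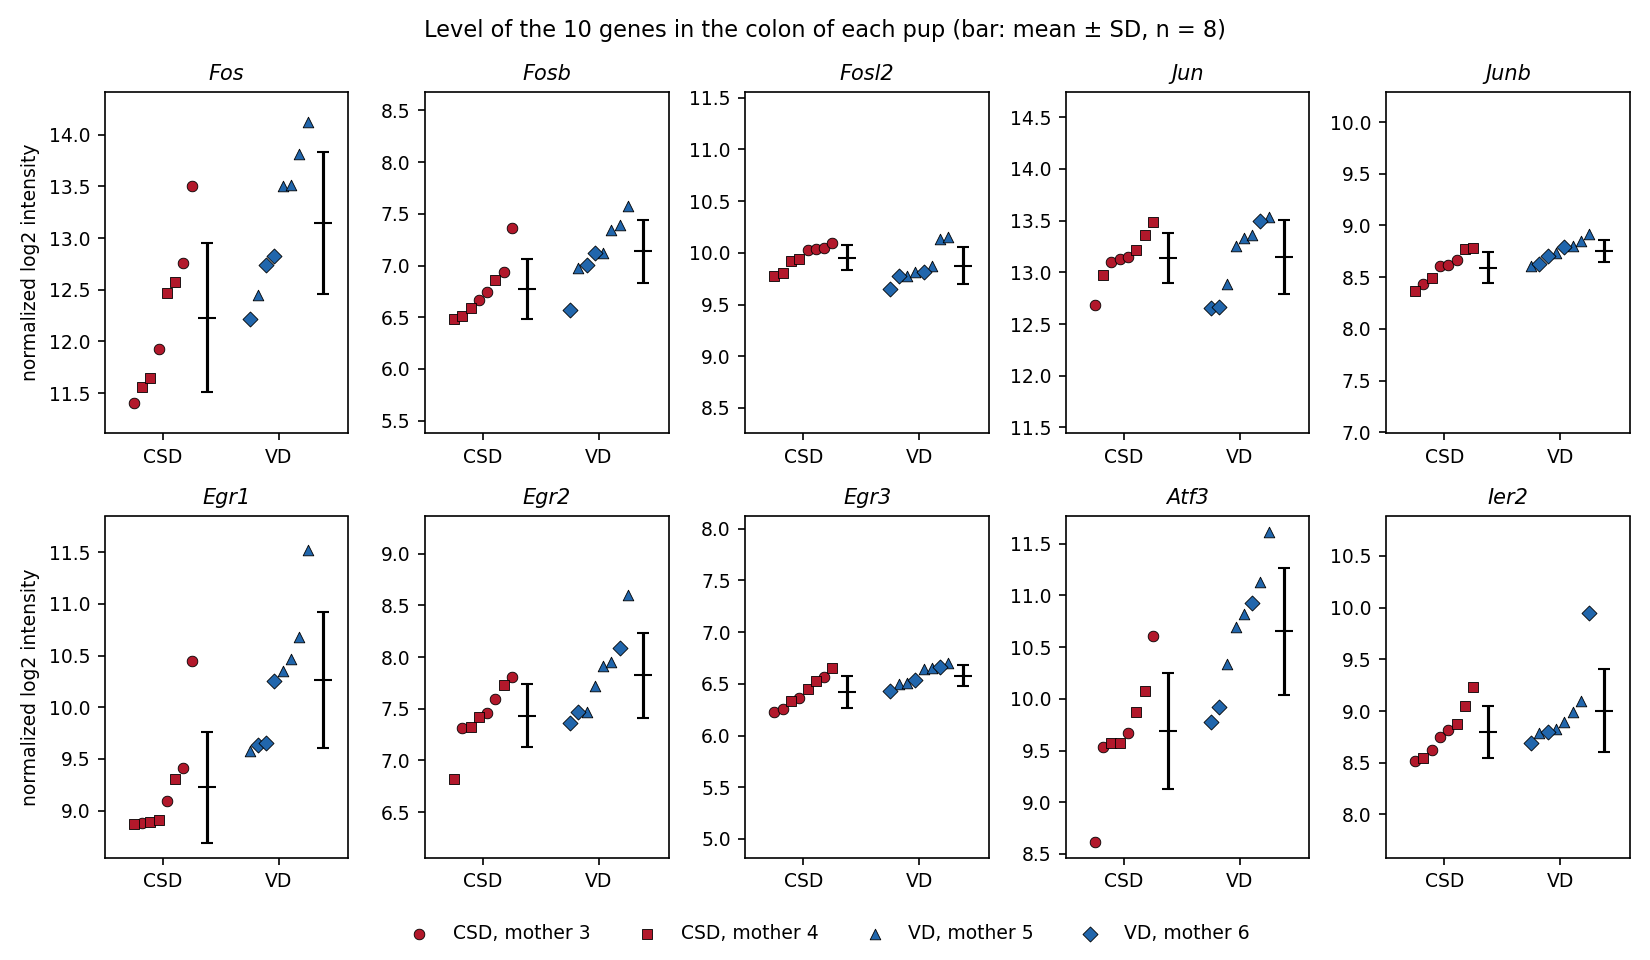
Normalized log2 intensity (vertical axis, the same span of log2 units in each panel) of the 10 genes in each CSD and VD pup, sorted within a group, with the symbol giving the biological mother and the bar the mean ± SD of 8 pups. Fos, Egr1 and Atf3 spread widest, and CSD pup 8 lies well above the other CSD pups for Egr1. For Fos the highest VD pups are of mother 5, although VD pup 5 of that litter lies low, at 12.45.

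Among the Fos family, Fos, the founding member of AP-1, ranged in CSD pups from 11.40 through a median of 12.20 to 13.51, and in VD pups from 12.22 through 13.16 to 14.13. The groups overlapped, but 4 CSD pups lay below every VD pup and 3 VD pups lay above every CSD pup. The pup with the highest level was VD pup 9 and the one with the lowest was CSD pup 5. The log2 fold change was -0.84 (standard error 0.35, adjusted p = 0.264, limma). Permuting the delivery modes of the 16 pups, as if each pup had been assigned on its own, gave an exact two-sided p = 0.0253. Here and below, this permutation test ignores litter, although delivery mode varied only between litters. The probe of Fos lay at chr12:86818118-86818177 of mm9 on the plus strand, and was well above background on all 16 arrays. Fosb, which makes the same kind of AP-1 partner as Fos and holds the EGR site shown above, ranged from 6.48 through 6.71 to 7.37 in CSD pups and from 6.57 through 7.12 to 7.58 in VD pups. Only 2 CSD pups lay below all VD pups. Its log2 fold change was -0.35 (standard error 0.15, adjusted p = 0.285, limma). The gene value averages a probe that was well above background on all arrays (chr7:19888168-19888227) and a probe that was above background on 0 arrays, and the first probe alone gave -0.60 (standard error 0.26). In the authors' deposited matrix, fitted with the same model, Fosb was at -0.74 (adjusted p = 0.317, limma). Fosl2, also called Fra-2, a slower member of the family, ran the other way. It measured 9.96 ± 0.12 in the CSD group against 9.88 ± 0.18 in the VD group (mean ± SD, n = 8 each), and CSD minus VD in the model was 0.09 (standard error 0.08, adjusted p = 0.649, limma). Its 2 probes, both above background on every array, gave 0.13 (standard error 0.08) and 0.05 (standard error 0.10).

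The Jun genes encode the partners that Fos proteins need to bind DNA. Jun measured 13.14 ± 0.24 in the CSD group against 13.15 ± 0.36 in the VD group (mean ± SD, n = 8 each), and no CSD pup lay outside the range of the VD pups. The difference between delivery modes, -0.07 (standard error 0.14, adjusted p = 0.871, limma), was smaller than its error. Junb, which can restrain the activity of Jun, ranged from 8.37 through 8.61 to 8.78 in CSD pups and from 8.61 through 8.76 to 8.91 in VD pups. Here 4 CSD pups lay below every VD pup and 4 VD pups above every CSD pup, and the log2 fold change was -0.18 (standard error 0.07, adjusted p = 0.198, limma). Of its 4 probes, 2 were above background on all 16 arrays and gave -0.33 and -0.22, 1 was above background in 4 CSD and 5 VD pups and gave -0.03, and 1 was above background on 0 arrays and gave -0.13 (standard error 0.04, unadjusted p = 0.00388 in limma).

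Of the Egr family, Egr1, the member most widely used as a marker of a recent stimulus, differed most. Its level ranged in CSD pups from 8.87 through a median of 9.01 to 10.45 and in VD pups from 9.58 through 10.30 to 11.52. A single pup made the groups overlap, since 7 of 8 CSD pups lay below every VD pup and CSD pup 8 lay at 10.45. Its log2 fold change was -0.98 (standard error 0.30), or 1.97-fold lower in CSD (adjusted p = 0.122, limma), and the exact two-sided permutation test gave p = 0.00466. Egr2, which shares the DNA-binding domain of Egr1 and carries the CArG boxes shown above, ranged from 6.82 through 7.44 to 7.81 in CSD pups and from 7.36 through 7.82 to 8.60 in VD pups. In this gene 3 CSD pups lay below all VD pups, and the log2 fold change was -0.30 (standard error 0.16, adjusted p = 0.418, limma). Egr3, known as a target of the same signals in lymphocytes and muscle spindles, measured 6.42 ± 0.15 in the CSD group against 6.58 ± 0.10 in the VD group (mean ± SD, n = 8 each). The log2 difference, -0.14 (standard error 0.06, adjusted p = 0.334, limma), is an average over 3 probes that did not behave alike. The probe above background on every array gave -0.40 (standard error 0.13, unadjusted p = 0.00624 in limma), one above background in 2 VD pups gave -0.13, and one above background on 0 arrays gave 0.12. In the deposited matrix Egr3 was at -0.50 (adjusted p = 0.235, limma).

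Atf3, a stress-induced factor that pairs with Jun, ranged in CSD pups from 8.62 through 9.62 to 10.61 and in VD pups from 9.77 through 10.76 to 11.61. In this gene 5 CSD pups lay below every VD pup and 5 VD pups above every CSD pup. The log2 fold change was -0.88 (standard error 0.29), or 1.84-fold lower in CSD (adjusted p = 0.147, limma), with p = 0.00591 in the exact two-sided permutation test. Its probe lay at chr1:192994547-192994606 of mm9 on the minus strand. Ier2, a nuclear protein induced together with Fos, measured 8.80 ± 0.25 in the CSD group against 9.00 ± 0.40 in the VD group (mean ± SD, n = 8 each). Its CSD minus VD value was -0.24 (standard error 0.17, adjusted p = 0.549, limma). Its probes diverged in 1 pup. The probe for the reference transcript gave -0.26 (standard error 0.08, unadjusted p = 0.00639 in limma), with 10.47 to 10.91 in CSD and 10.83 to 11.19 in VD pups. The other, designed on the cDNA AK032692, gave -0.22 (standard error 0.29) and reached 8.86 in VD pup 8, against at most 7.59 in any CSD pup. Without VD pup 8 the value of Ier2 was -0.12 (adjusted p = 0.579, limma).

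By single probe, 15 of the 18 probes were lower in CSD. At an unadjusted p under 0.05, 9 of the 18 passed, 8 lower in CSD and 1 higher, against 15.1% of all probes. Of these 9, the higher one (of Egr3) and 1 of the lower ones (of Junb) were above background on 0 arrays. On all 16 arrays, 13 of the 18 were well above background, and of these 11 were lower in CSD and 7 had an unadjusted p under 0.05. Of the 18 probes 0 were called, against 1.74% of all probes. The exact permutation test (two-sided), which takes neither litter nor sex into account, gave p under 0.05 for 7 of the 10 genes, against 17.1% of all genes with a value on every array. Without VD pup 9 that number was 3 and without VD pup 11 it was 4. In 0 of the 10 genes did every CSD pup lie below every VD pup, against 0.199% of all genes.

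The genes differed in how much they varied between pups of the same delivery mode and sex. The residual SD in the limma model exceeded that of 90% of all genes for 7 of the 10 members. Fos stood at percentile 99.2 (residual SD 0.72), Egr1 at 98.8 (0.61) and Atf3 at 98.7 (0.59), whereas Junb stood at 67.6 (0.13) and Egr3 at 66.2 (0.13). From the lowest to the highest of the 16 pups, Atf3 spanned 7.96-fold, Fos 6.62-fold and Egr1 6.25-fold, while Fosl2 spanned 1.42-fold. The number above percentile 90 depended on the background correction. It was 4 with no offset and 1 under either scaling of the intensity that the scanner software had corrected. With the brightest probe per gene it was 8. The values of Junb and Egr3 average in probes that were not above background on every array.

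The genes differed in how closely they followed each other over the pups. Between Fos, Fosb, Egr1 and Atf3, set together after their values were seen, the 6 pairwise Pearson correlations over the 16 pups were 0.72 to 0.88, and 0.57 to 0.83 once delivery mode and sex were removed. The correlations of Junb with these 4 genes were 0.54 to 0.67 (0.37 to 0.60 with delivery mode and sex removed) and those of Egr2 0.41 to 0.64 (0.17 to 0.46). Fosl2 had correlations between 0.06 and 0.33 (0.31 and 0.59), and Egr3 between 0.20 and 0.43 (-0.17 and 0.03). Those of Jun lay between -0.17 and 0.05 (-0.16 and 0.12) and those of Ier2 between -0.02 and 0.25 (-0.21 and 0.10), although both genes varied widely. These are descriptions over pups that share litters, and each pair of values comes from the same array. VD pup 9, a male of mother 5, held the highest level of 7 of the 10 genes and the highest mean over them (10.14). CSD pup 5, a female of mother 3, held the lowest level of 3 genes and the lowest mean (8.93). Among CSD pups the highest mean was that of CSD pup 8 (9.57), above the lowest VD pup (9.33, VD pup 6).

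**Figure D2:**
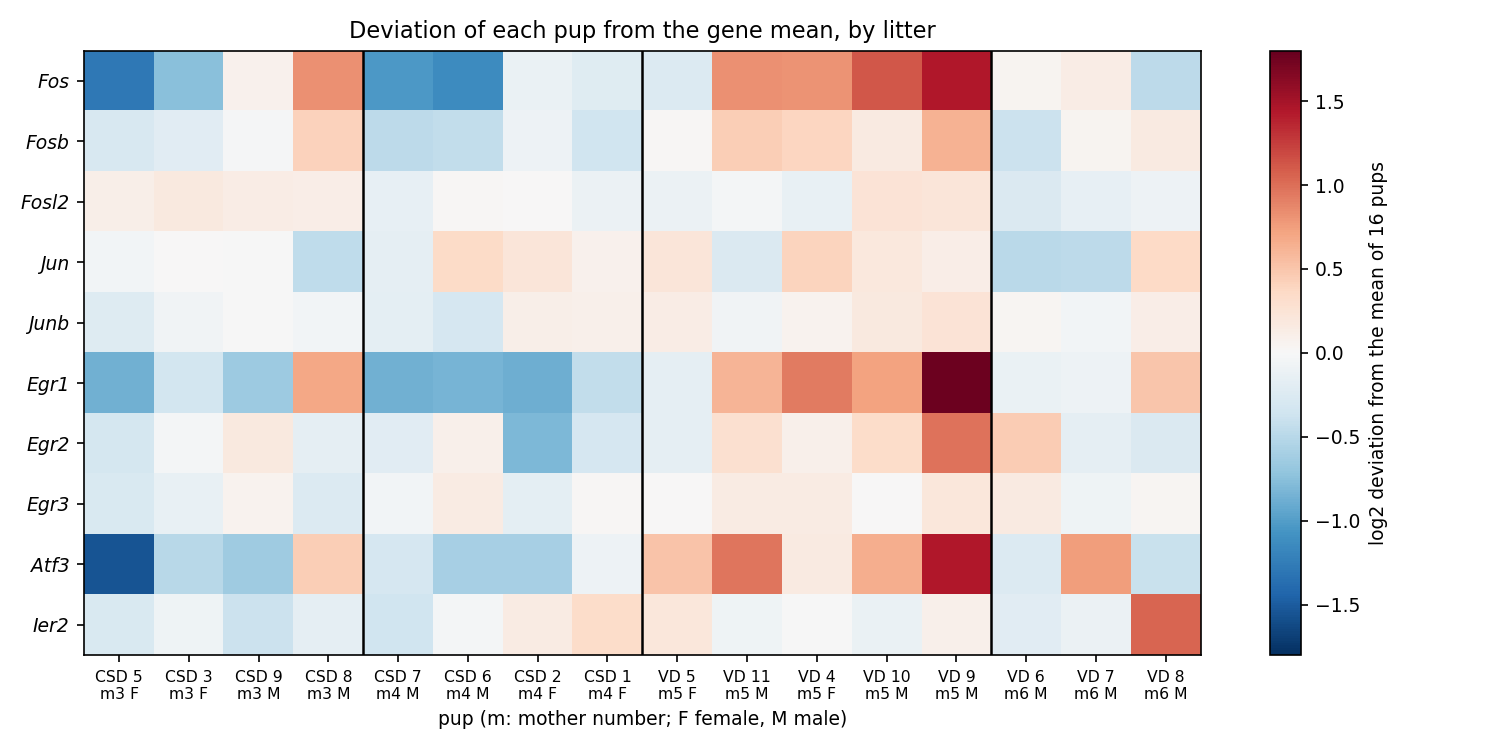
Log2 deviation of each pup from the mean of the 16 pups (colour), with genes as lines of the grid and pups as columns grouped by biological mother between the black lines and marked by sex. VD pup 9 is red in most genes, CSD pup 8 is red for Fos, Fosb, Egr1 and Atf3 where most other CSD pups are blue, and VD pup 8 stands out for Ier2.

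Litters were compared next, since delivery mode changed only with the mother. In 6 of the 10 genes (Fos, Junb, Egr1, Egr2, Egr3 and Atf3) both CSD litter means lay below both VD litter means, as they did in 20.3% of all genes. For Egr1 the litter means were 9.46 (mother 3) and 8.99 (mother 4) against 10.52 (mother 5) and 9.84 (mother 6). For Fos they were 12.40 and 12.06 against 13.48 and 12.59, so that the litter of mother 6 lay closer to the CSD litters than to the other VD litter. Atf3 measured 9.61 and 9.77 in the CSD litters, 10.92 in the litter of mother 5 and 10.21 in that of mother 6.

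Within the VD group, pups of mother 5 had higher values than pups of mother 6 in 9 of the 10 genes, with Ier2 the exception, against 52.0% of all genes. The log2 difference (mother 5 minus mother 6, with sex in the model) was 1.08 for Fos (standard error 0.44), 0.92 for Atf3 (standard error 0.36) and 0.83 for Egr1 (standard error 0.38), sizes close to those of the difference between delivery modes. None was called (lowest adjusted p = 0.252, for Fosl2, limma), where 0.874% of all genes were. At an unadjusted p under 0.05, 6 of the 10 passed, against 11.5% of all genes. Within the CSD group 5 of the 10 genes were higher in the litter of mother 3 than in that of mother 4. Here 0 of the 10 were called, against 0.0872% of all genes, and 1 (Fosl2) had an unadjusted p under 0.05, against 7.69%.

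The difference between delivery modes depended on which litter was left out. Without the 3 pups of mother 6, 4 of the 10 genes were called, all lower in CSD, against 6.17% of all genes called and 2.98% called and lower. They were Atf3 (log2 fold change -1.18, adjusted p = 0.00872), Egr1 (-1.25, adjusted p = 0.0172), Fos (-1.20, adjusted p = 0.0335) and Fosb (-0.50, adjusted p = 0.0361), all from limma. In that fit the pups of 1 litter stand for vaginal delivery. Its correlation between litter mates was estimated below 0 (-0.061), so its p-values treat litter mates as less alike than independent pups. Without the 5 pups of mother 5 the values were -0.31 for Atf3, -0.51 for Egr1, -0.22 for Fos and -0.07 for Fosb, and 0 of the 10 genes were called, against 0.515% of all genes. Without the CSD litter of mother 3 the values were -0.87 for Atf3, -1.27 for Egr1, -1.15 for Fos and -0.56 for Fosb. Without that of mother 4 they were -0.93, -0.72, -0.57 and -0.17. In both fits 0 of the 10 genes were called, against 212 and 138 of the 36711 genes. Leaving out CSD pup 8 brought Egr1 to -1.20 (adjusted p = 0.0455, limma), and the other 9 genes were not called, where 1.12% of all genes were. On slide 1 alone the log2 fold change was -0.61 for Egr1, -0.85 for Atf3 and -0.71 for Fos, and on slide 2 alone -1.33, -0.91 and -0.97. All 10 genes were lower in CSD on slide 1 (49.0% of all genes were) and 8 on slide 2 (49.2%). Because each litter has 1 mother and 1 delivery mode, litter and delivery mode cannot be told apart beyond these 4 litters.

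**Figure D3:**
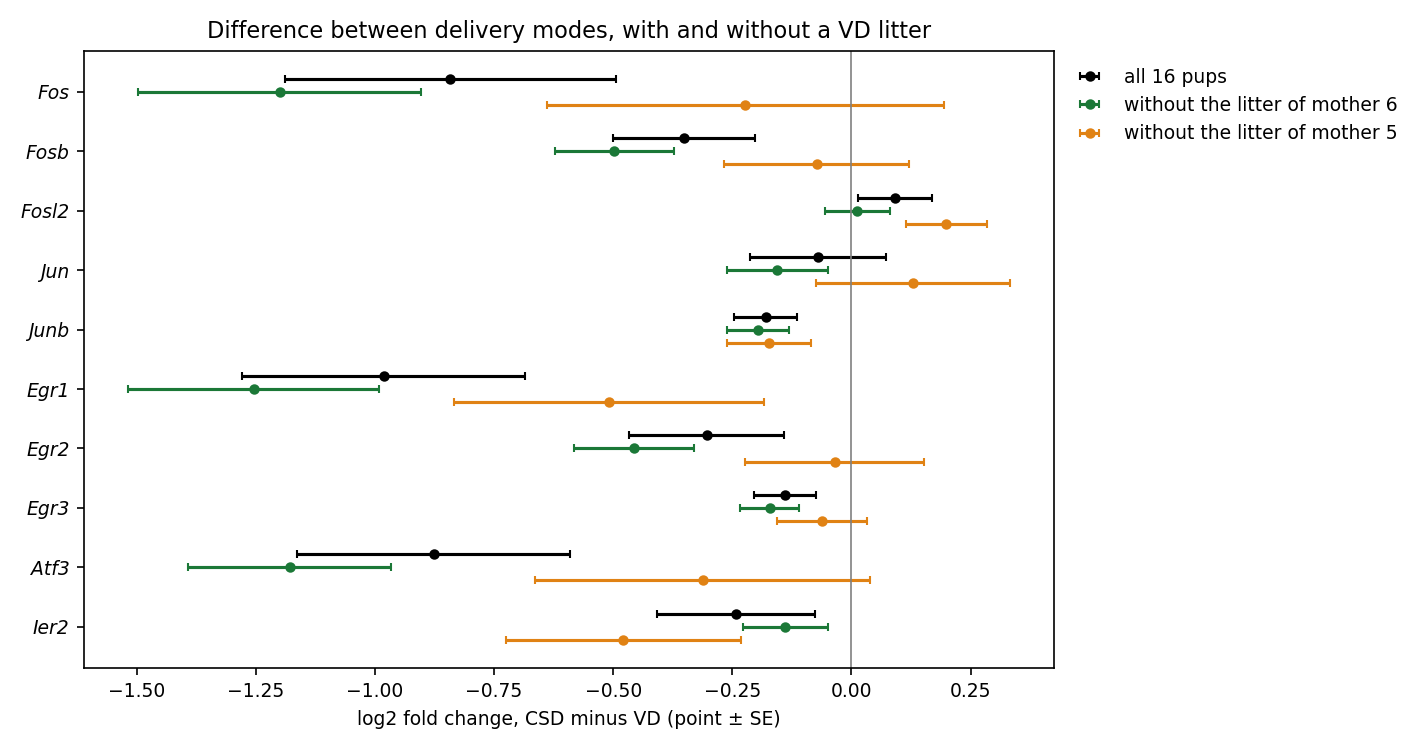
Log2 fold change of CSD against VD pups (horizontal axis, point ± standard error) for the 10 genes over all 16 pups, without the 3 pups of mother 6 and without the 5 pups of mother 5. For Fos, Egr1 and Atf3 the points lie farthest below 0 without the litter of mother 6 and nearest to 0 without that of mother 5, and for Ier2 the order is the opposite.

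Sex was tested because the VD group held more males. None of the 10 genes was called between males and females (0.0599% of all genes were), and 0 had an unadjusted p under 0.05, against 6.45% of all genes. Values in males were higher for 7 of the 10 genes, with the largest for Egr2, at 0.33 (standard error 0.16), and Atf3, at 0.32 (standard error 0.29). Jun was the lowest in males relative to females, at -0.25 (standard error 0.14). The delivery by sex interaction was called in 0 of the 10 genes (0.00272% of all genes were), and 0 had an unadjusted p under 0.05, against 4.72% of all genes. Its standard error was 0.73 for Fos and 0.62 for Egr1, so that a difference between the sexes as large as the effect of delivery could not be detected in these genes. In males alone, Egr1 was at -0.98 and Atf3 at -0.80.

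The wider set of immediate early genes was read from lists of genes known to belong to these pathways. Of 45 other immediate early genes, 25 were lower in CSD and 20 higher, and the median log2 fold change was -0.05. At an unadjusted p under 0.05, 8 were lower and 5 higher. Over all genes 14.5% passed that limit, and 7.09% were also lower. Called were 3 of the 45, where 1.25% of all genes were, a share that serves for the lists below as well. Cyr61, a secreted matrix protein, ranged in CSD pups from 7.80 through 8.17 to 8.54 and in VD pups from 8.30 through 8.95 to 9.72. It fell by 0.82 on the log2 scale (standard error 0.17, adjusted p = 0.0310, limma), and 6 of 8 CSD pups lay below every VD pup. Zfp36l1, which binds AU-rich elements and speeds the decay of short-lived transcripts, fell by 0.20 (standard error 0.04, adjusted p = 0.0392, limma). Myc, a driver of cell growth, rose by 0.33 (standard error 0.04, adjusted p = 0.00254, limma), and its groups did not overlap. The call of Cyr61 was lost in 18 and that of Zfp36l1 in 29 of 39 alternative settings, that of Myc in 6. The 39 settings, here and below, include litter means, males only, each slide alone and the replicate block. These called 0 or 11 of all genes, so a call lost there cannot be told from the low power of those fits. Litter means is still the fit at the level where delivery mode varied, with 2 litters a group, and no call stood in it. The calls given here and below thus rest on a fit that counts litter mates as nearly independent. In the settings that called 0 or 11 of all genes, Myc lay between 0.30 and 0.34, Cyr61 between -0.96 and -0.68 and Zfp36l1 between -0.23 and -0.16. Among those not called, Nr4a1, an orphan nuclear receptor, was at -0.97 (standard error 0.28, adjusted p = 0.0995, limma) and Csrnp1 at -0.53 (standard error 0.17, adjusted p = 0.139, limma), while Ctgf, a relative of Cyr61, was at 0.34 (standard error 0.14, adjusted p = 0.251, limma). These 3 were chosen after their values were seen.

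**Figure D4:**
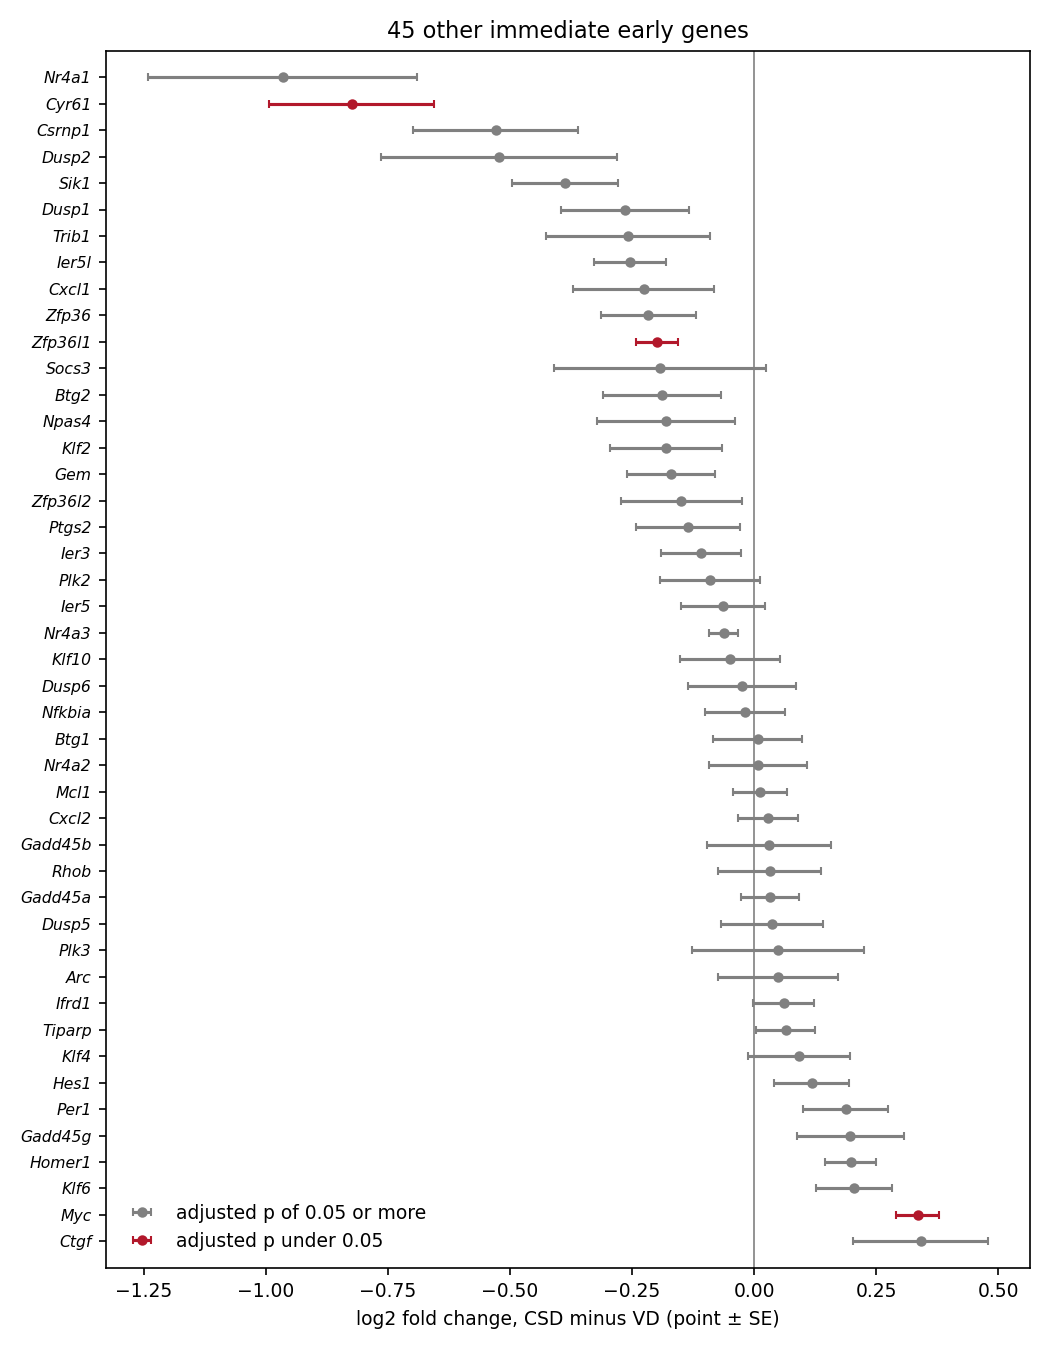
Log2 fold change of CSD against VD pups (horizontal axis, point ± standard error) for 45 other immediate early genes, sorted by size, with the called genes in red. Nr4a1 and Cyr61 lie farthest below 0, Myc and Ctgf farthest above.

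Other partners and regulators of AP-1 and EGR were mixed. Of 13 further AP-1 genes 0 were called, with 7 lower and 6 higher. The 2 with the smallest p were Jdp2, a repressor of AP-1, at 0.27 (standard error 0.07, adjusted p = 0.0902, limma) and Jund, the Jun family member with steady expression, at -0.24 (standard error 0.08, adjusted p = 0.157, limma). Jdp2 was above every VD pup in 6 of 8 CSD pups. Jund was called in 1 of 39 alternative settings. Nab2, the co-repressor that EGR proteins induce and that then silences them, was the only one of 3 genes called in its list. It measured 8.35 ± 0.07 in the CSD group against 8.56 ± 0.10 in the VD group (mean ± SD, n = 8 each) and fell by 0.19 (standard error 0.04, adjusted p = 0.0421, limma), a call lost in 27 of 39 alternative settings.

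Upstream of these genes, 0 of 20 growth factor ligands and receptors were called, with 14 lower and 6 higher. Erbb4, a neuregulin receptor, was at -0.15 (standard error 0.04, adjusted p = 0.0542, limma). It was called in 8 of 39 alternative settings, and with bright probes only it was at -0.28 (adjusted p = 0.0481, limma). Pdgfrb, the PDGF receptor of mesenchymal cells, was also at -0.15 (standard error 0.05, adjusted p = 0.189, limma). Of 26 kinases of the MAP kinase cascades 1 was called, with 12 lower and 14 higher. It was Rps6ka4, also called MSK2, a kinase that phosphorylates CREB and histone H3 at immediate early promoters. Its level was 10.93 ± 0.06 in the CSD group against 11.10 ± 0.05 in the VD group (mean ± SD, n = 8 each), without overlap, and fell by 0.18 (standard error 0.03, adjusted p = 0.0195, limma), a call lost in 12 of 39 alternative settings. In the settings that called 0 or 11 of all genes, the value of Rps6ka4 lay between -0.19 and -0.17.

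Of 17 transcription factors and coactivators that act on immediate early promoters, 3 were called. Crebbp, the acetyltransferase that CREB recruits, rose by 0.22 (adjusted p = 0.0344, limma), and Mkl2, a coactivator of serum response factor, rose by 0.15 (standard error 0.03, adjusted p = 0.0404, limma). Mef2c, a MADS-box factor, fell by 0.29 (adjusted p = 0.0449, limma). Settings that lost these calls numbered 15 of 39 for Crebbp, 28 for Mkl2 and 26 for Mef2c. Of 20 genes reported as targets of AP-1 or EGR1, 0 were called, with 13 lower and 7 higher and a median of -0.07. The 2 with the smallest p were Tgfb1, a growth-restraining cytokine (-0.22, standard error 0.06, adjusted p = 0.0970, limma), and Icam1, an adhesion molecule for leukocytes (-0.28, standard error 0.10, adjusted p = 0.159, limma). Tgfb1 was called in 2 and Icam1 in 1 of 39 alternative settings. Of 10 heat shock genes, looked up as another rapid stress response, 8 were higher in CSD and 1 was called, Hsp90aa1, which rose by 0.44 (adjusted p = 0.0147, limma) and lost its call in 10 of 39 alternative settings.

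Genes whose pattern over the 16 pups was most like the mean of the 10 members were ranked by Pearson correlation among 20538 genes well above background on all arrays, with the 10 members left out. The mean is of unscaled log2 values, so members that vary most weigh most in it. Its r was 0.955 with Egr1, 0.908 with Fos, 0.875 with Fosb and 0.863 with Atf3. With Junb it was 0.709, with Egr2 0.655 and with Egr3 0.515, but with Ier2 0.251, with Fosl2 0.247 and with Jun 0.116. The 8 genes of highest rank were the predicted gene 8513 (r = 0.916), Grhl3 (0.916), the predicted gene 7129 (0.914), Dxo (0.905), Zmiz2 (0.904), Nr4a1 (0.901), Gapdh (0.900) and the predicted gene 9522 (0.899). Grhl3 is an epithelial transcription factor of barrier formation, Dxo a decapping exoribonuclease and Gapdh a glycolytic enzyme. After delivery mode and sex were removed, the correlations of these 8 genes lay between 0.803 for Nr4a1 and 0.893 for Dxo. None of the 8 was called between delivery modes, and their log2 fold changes ran from -0.97 for Nr4a1 to -0.11 for Dxo.

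Markers of the cell types of the colon were set beside these values, as whole-tissue RNA cannot tell fewer cells of a type from less RNA per cell. None of the genes in these lists was called in the values reported. Among those named below, Cd79a was called in 4 of 39 alternative settings, Fcgbp and Slc26a3 in 2 each and Plvap in 1. The 13 epithelial markers had 11 genes higher and 2 lower in CSD (median 0.17), and their mean log2 level ran from 14.99 to 15.46 in CSD (median 15.14) and from 14.86 to 15.17 in VD pups (median 15.03), with Krt8 the brightest. Fcgbp, a goblet cell mucus protein, was at 0.59 (standard error 0.15, adjusted p = 0.0722, limma) and Slc26a3, the chloride exchanger of surface colonocytes, at 0.45 (standard error 0.13, adjusted p = 0.113, limma). All 8 endothelial markers were lower (median -0.15), with Plvap, the brightest, at -0.27 (standard error 0.11, adjusted p = 0.244, limma) and Tie1 at -0.15 (standard error 0.06, adjusted p = 0.200, limma).

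Of 11 leukocyte markers 9 were lower in CSD (median -0.15), and their mean level ran from 8.34 to 8.81 in CSD (median 8.58) and from 8.66 to 9.12 in VD pups (median 8.74), with Csf1r the brightest. Cd79a, a part of the B cell receptor, had the smallest p in this list, at -0.48 (standard error 0.14, adjusted p = 0.0993, limma). Smooth muscle markers were lower in 8 of 9 cases (median -0.12), with Tagln the brightest, Smtn at -0.19 (adjusted p = 0.275, limma) and Acta2 at -0.17 (adjusted p = 0.419, limma). Fibroblast markers were lower in 5 of 8 (median -0.05, brightest Dcn), with Col6a1 at -0.17 (adjusted p = 0.280, limma) and Dcn at -0.18 (adjusted p = 0.363, limma). Neuron and glia markers were lower in 3 of 10 (median 0.03, brightest Uchl1), with Sox10 at -0.16 (adjusted p = 0.381, limma) and Uchl1 at -0.22 (adjusted p = 0.474, limma).

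The 6 adipocyte markers (median -0.22, brightest Cfd) and the 5 red blood cell genes (median -0.34, brightest Hba-a1) were all lower. Lep was at -0.08 (adjusted p = 0.328, limma), Cfd at -0.75 (adjusted p = 0.707, limma), Hba-a1 at -0.41 (adjusted p = 0.360, limma) and Hbb-b1 at -0.42 (adjusted p = 0.417, limma). Of the 7 exocrine pancreas genes 4 were lower and 3 higher (median -0.015, with Cpb1 the brightest), and 3 were above background on 0 arrays. Cpb1 was at 0.37 (adjusted p = 0.132, limma) and Cpa1, above background on 1 array, at 0.08 (adjusted p = 0.745, limma). The markers well above background on all arrays were also correlated with the mean of the 10 immediate early genes over the 16 pups, as a description over pups that share litters. As said above, that mean follows Egr1, Fos, Fosb and Atf3 closely, and Jun, Fosl2 and Ier2 little. Pearson's r was above 0 for 6 of 13 epithelial, 8 of 8 endothelial, 8 of 10 leukocyte, 7 of 9 smooth muscle, 4 of 8 fibroblast, 3 of 10 neuron and glia, 1 of 6 adipocyte, 4 of 4 red blood cell and 1 of 3 exocrine pancreas genes. With delivery mode and sex removed it was above 0 for 11 of the epithelial (median r 0.392) and 6 of the smooth muscle markers (0.12). In the other lists it was then above 0 for 3 endothelial (median r -0.153), 4 leukocyte (-0.159), 3 fibroblast (-0.069), 2 neuron and glia (-0.368), 0 adipocyte (-0.601), 0 red blood cell (-0.412) and 1 exocrine pancreas genes (-0.109). With delivery mode and sex removed, epithelial markers thus had the highest median of these lists and adipocyte markers the lowest. Before that removal the median r was highest for smooth muscle (0.372) and lowest for neuron and glia markers (-0.262). It was then -0.016 for epithelial and -0.211 for adipocyte markers.

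VD pup 9, which had the highest mean of the 10 immediate early genes, was the highest VD pup for the mean of the epithelial markers (15.17) and the lowest VD pup for that of the neuron and glia markers (8.18). Over both groups, the epithelial mean was highest in CSD pup 8 (15.46) and the neuron and glia mean lowest in CSD pup 1 (8.11). These lists were picked for mention after their values were seen. The part of these cell types in the differences of the immediate early genes was not tested.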

How the data were processed

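Colon RNA of 8 CSD and 8 VD pups was measured on 1-colour Agilent arrays. The authors deposited the scanner output, with a mean intensity and a median local background per spot (Feature Extraction, linear scale, probe positions on mm9), and a matrix of log2 values that the authors corrected, quantile normalized and averaged by gene (limma 3.38 in their processing notes). Here the intensity was corrected by normexp (offset 50), control and outlier spots were left out, and log2 values were quantile normalized in limma 3.58.1 (R 4.3.3). Probes above the 5% quantile in at least 4 arrays were kept and averaged by gene name. In the model, delivery mode and sex were fixed and the biological mother was random (duplicateCorrelation, consensus correlation 0.0152), with lmFit, eBayes and Benjamini-Hochberg adjustment over 36711 genes. With only 2 litters a delivery mode this correlation is poorly known. Litters were compared with the mother as a fixed effect. Permutation tests used all 12870 assignments of 8 pups out of 16.

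The members and lists were chosen with earlier results of these data known. Named were all 10 members, and from each other list each called gene (if none was called, the 2 of smallest p), and the 8 genes of most like pattern. One gene that this rule names is not reported here. Alternatives were other background corrections, scalings, filters and models, the deposited matrix, litter means, males only, each slide, the replicate block, and the omission of single pups or litters. The procedure was tested on simulated data. Plots were drawn with matplotlib 3.10.9.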

Additional observations from a re-analysis of the deposited data

Results flagged for a closer look

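Among the 20 sets of 8 pups (10 genes in 2 groups) examined for a value far from the rest, 2 were found, where chance gives about 1 in 20. Egr1 in CSD pup 8 was at 10.45, with the next CSD pup at 9.41, a gap of 0.66 of the range of the group, beyond the critical value of Dixon's test at the 95% level. The same pup was the highest CSD pup for Fos, Fosb and Atf3. Ier2 in VD pup 8 was at 9.95, with the next VD pup at 9.10, a gap of 0.677 of the range. In that pup the Ier2 probe designed on the cDNA AK032692 was high (8.86), while the probe for the reference transcript was highest in VD pup 9.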

How the results depend on the processing

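Of the 39 alternative settings, 4 (litter means, males only, slide 2 only and the replicate block) called 0 of all genes and slide 1 only called 11. In them, the lack of a call for a member cannot be told from low power. Litter means is the fit at the level where delivery mode varied, and no gene was called in it. The others called 102 to 2265 genes. Without the litter of mother 6, 4 of the 10 were called, leaving out 1 pup at a time gave between 0 and 1, and the rest of these settings gave 0. The number of genes lower in CSD stayed within a factor of 1.5 of 9 throughout. Jun and Fosl2 changed sign. Jun was at 0.0317 with litter means, 0.0192 in males only, 0.0803 on slide 2 only, 0.0433 when mother 3 was left out and 0.13 when mother 5 was. Fosl2 was at -0.0171 on slide 1 only and -0.0032 without the litter of mother 3. Among the other genes named, Col6a1 was at 0.0040 and Dcn at 0.000314 on slide 2 only, Cfd at 0.30 in males only, 0.02345 with the replicate block and 0.17 without the litter of mother 5, Cpa1 at -0.0169 without the litter of mother 3, and Hbb-b1 at 0.14 on slide 1 only. The members with a residual SD above percentile 90 numbered 4 with normexp offset 0, 1 with the scanner-corrected intensity and quantile normalization and 1 with it and the 75th percentile, and 7 in the values reported. The permutation test passed 3 to 7 genes when 1 pup was left out. The causes were not tested.
The replicate numbers did not pair the pups (correlations of same-numbered deviations from -0.049 to 0.215), and the replicate block fit, which called 0 of all genes, gives no value for the calls of the 10. Of the 18 probes 5 were not above background on every array, and with the other probes alone (chosen after seeing the data) Fosb was at -0.58, Egr3 at -0.40 and Junb at -0.27. In the deposited matrix Fosb was at -0.74, Egr3 at -0.50 and Fosl2 at 0.16, each over 1.5 times the value reported. Leaving out 1 pup at a time moved Ier2 by that much without VD pup 8 (-0.12) and Jun, which ran from -0.16 without CSD pup 6 to -0.0044 without CSD pup 8. Precision is limited by 8 arrays and 2 litters a group.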
